A study of Mus musculus with 8 samples.

Results

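A set of 40 mouse genes of the NRF2, glutathione and thioredoxin defence was followed by RNA sequencing in mesenchymal cells sorted from the large intestine. The genes were found by symbol from a list made by function, with earlier results of these data known. They are 40 of the 24346 gene symbols measured. They comprise 3 regulators, 5 genes of glutathione synthesis and recycling, 9 of the thioredoxin and peroxiredoxin system, 5 of NADPH supply, 5 glutathione peroxidases, 3 genes for superoxide dismutases and catalase, 4 glutathione transferases, 4 genes of detoxification and export and 2 metallothioneins. Per the labels, the sort kept gp38-positive (podoplanin) cells with high PDGFRα and left out cells with CD45, EpCAM, CD31 or Ly6C on their surface. In C57BL/6 mice, 3 libraries were labelled as 6 h and 3 as 0 h of exposure to GABA at 1 mM and taurine at 20 mM. These are amino acids that do not enter proteins, and the labels leave unclear whether mice or isolated cells received them. The other libraries were untreated, 1 from a Foxl1cre; Cxcl12 flox/flox mouse (the conditional knockout) and 1 from a Cxcl12 flox/flox mouse (the floxed control), so both carried the floxed allele of the chemokine gene Cxcl12. In that line Cxcl12 is lost only in cells in which Foxl1-Cre is or was active, and the sources used here do not say how many of the sorted cells had active Cre. No 6 h library without GABA and taurine is among the samples, so time and treatment cannot be told apart. The labels do not say whether the 3 replicates were separate animals or cultures, so p-values rest on a spread between libraries that may be technical only. No age is given.

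NRF2, encoded by Nfe2l2, is a transcription factor that turns on antioxidant and detoxifying genes through the antioxidant response element in their promoters and enhancers. In unstressed cells KEAP1 binds NRF2 and has it degraded. Electrophiles and oxidants modify cysteines of KEAP1, so that NRF2 escapes and its targets are transcribed. Glutathione, a small thiol made from glutamate, cysteine and glycine, and thioredoxin, a small protein with a reactive cysteine pair, both pass electrons from NADPH to peroxides and oxidised proteins. In the gut wall, mesenchymal cells lie beside an epithelium that is exposed to oxidants and to compounds from the lumen, and some of the enzymes, among them GPX3 and SOD3, are secreted into the extracellular space.

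Values were FPKM, fragments scaled by transcript length and sequencing yield, which are per length and so can be set side by side between genes. Between 14818 and 14974 genes had a value above 0 in the GABA and taurine libraries, against 20874 and 21006 in the untreated ones. Total FPKM per library lay between 513001 and 579004, and the number of reads behind the values is unknown. Foxl1, a marker of subepithelial mesenchyme, was at 0.109 to 0.289 FPKM in the 6 GABA and taurine libraries, against 11.6 FPKM in the conditional knockout and 10.2 FPKM in the floxed control library. Pdgfra and Pdpn, which the gate selected, were at 91.7 FPKM or more in all 8 libraries, whereas Ly6c1, which the gate excluded, was at 8.76 to 12.4 FPKM, against 89.6 and 140.9 FPKM. The summed level of 7 fibroblast markers was 1932 to 2114 FPKM in the GABA and taurine libraries, against 15694 and 14074 FPKM. Of these 7 markers, 6 were lower in all 6 GABA and taurine libraries than in both untreated ones, and Vim, the largest part of the GABA and taurine sum, was higher, at 1165 to 1344 FPKM, against 605.5 and 532.5 FPKM. Cxcl12, the targeted gene, was at 739.7 FPKM in the conditional knockout and 1298 FPKM in the floxed control library, a value over the whole gene and not over the floxed part.

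Motif matches near transcript starts show how the promoters of the set differ in sequence. Such a start need not be the outermost one of its gene. The matches of Txnrd1 and Pgd printed below lie inside the gene spans, chr10:82833951-82897712 and chr4:149149991-149166771. Promoter windows from RefSeq (GRCm38.p6, 250 bases before to 50 after a transcript start) were found for 34 of the 40 genes, in 42 windows, but not for Prdx6, Gclc, Gsr, Sod3, Gsta4 and Abcc1. The core of the antioxidant response element, TGACNNNGC, was searched on both strands and was present in 10 of the 42 windows (23.8%), each of a different gene, against 12.4% of the 32851 windows of all genes. Each match is printed below on the strand that carries it, with 10 bases to either side and the match in capitals, since NRF2 is known to act through this sequence. In 3 of them, those of Prdx1, Mt2 and Me1, the match also holds the AP-1 motif TGACTCA, which was present in 14.3% of the windows of the set and 5.2% of all windows.
Nfe2l2 (chr2:75704885-75704913, minus strand): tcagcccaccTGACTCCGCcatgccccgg
Gclm (chr3:122245413-122245441, minus strand): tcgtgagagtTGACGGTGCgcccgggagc
Txnrd1 (chr10:82859104-82859132, minus strand): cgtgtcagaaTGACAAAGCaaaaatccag
Srxn1 (chr2:152105542-152105570, minus strand): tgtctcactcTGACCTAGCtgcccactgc
Prdx1 (chr4:116685456-116685484, minus strand): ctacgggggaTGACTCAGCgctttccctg
G6pdx (chrX:74428919-74428947, plus strand): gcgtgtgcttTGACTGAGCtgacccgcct
Pgd (chr4:149166061-149166089, minus strand): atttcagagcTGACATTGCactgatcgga
Me1 (chr9:86695902-86695930, minus strand): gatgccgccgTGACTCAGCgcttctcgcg
Sod1 (chr16:90220696-90220724, minus strand): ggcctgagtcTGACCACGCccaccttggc
Mt2 (chr8:94172529-94172557, plus strand): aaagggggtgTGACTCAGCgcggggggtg
A match of this kind is a description of letters and not of binding. Windows that lacked the motif, those of Nqo1, Slc7a11 and Gstp1 among them, say nothing of elements further from the start.

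The genes that passed the test at 6 h, Gclm and Mt1, follow with their whole windows, and Mt2 because it lies 5513 bases upstream of Mt1 on the same strand. In the Gclm window the capitals mark the antioxidant response element core, read on the minus strand. In the metallothionein windows they mark the core of the metal response element, TGCGCNC or TGCACNC on either strand, which was found 3 times in the Mt1 and 4 times in the Mt2 window. At least 1 match was present in 23.8% of the windows of the set and in 25.7% of all windows.
Gclm promoter (chr3:122245307-122245606, plus strand): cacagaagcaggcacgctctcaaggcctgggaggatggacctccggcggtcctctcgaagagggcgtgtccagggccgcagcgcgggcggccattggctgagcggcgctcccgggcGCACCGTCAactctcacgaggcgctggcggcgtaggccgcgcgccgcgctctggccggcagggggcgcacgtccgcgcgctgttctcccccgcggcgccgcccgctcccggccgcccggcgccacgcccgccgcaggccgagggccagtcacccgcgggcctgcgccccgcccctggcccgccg
Mt1 promoter (chr8:94178839-94179138, plus strand): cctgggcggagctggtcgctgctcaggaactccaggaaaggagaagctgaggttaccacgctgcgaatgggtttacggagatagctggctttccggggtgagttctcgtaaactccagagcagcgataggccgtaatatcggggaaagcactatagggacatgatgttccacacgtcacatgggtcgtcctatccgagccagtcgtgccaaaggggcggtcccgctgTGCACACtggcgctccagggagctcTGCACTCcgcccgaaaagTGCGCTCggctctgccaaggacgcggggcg
Mt2 promoter (chr8:94172368-94172667, plus strand): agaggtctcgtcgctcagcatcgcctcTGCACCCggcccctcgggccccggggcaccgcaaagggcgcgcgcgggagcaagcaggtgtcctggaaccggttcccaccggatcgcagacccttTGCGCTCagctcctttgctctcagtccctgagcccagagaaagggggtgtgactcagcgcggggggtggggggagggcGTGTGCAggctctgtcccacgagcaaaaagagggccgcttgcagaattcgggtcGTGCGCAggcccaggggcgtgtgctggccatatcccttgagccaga

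All 40 genes had a value above 0 in all 8 libraries, and their levels spanned a wide range. In the 6 GABA and taurine libraries the means ran from 9.17 FPKM for the cystine transporter gene Slc7a11 to 1536 FPKM for the peroxiredoxin gene Prdx1. In the 2 untreated libraries they ran from 0.833 FPKM for Slc7a11 to 2930 FPKM for Gpx3, the secreted glutathione peroxidase. Replicates of the set were close: the median coefficient of variation was 3.98% at 6 h and 4.33% at 0 h, against 8.33% and 8.87% over all genes tested. The latter take in all genes from a mean of 1 FPKM on, whereas the set means were 9.17 FPKM or more. Genes of a like level were not compared. Slc7a11 varied most at 0 h, by 26.6%, and Gpx7 most at 6 h, by 12.7%. The library kit does not mark strand. In 9 genes of the set, among them Keap1, Gclm, Gss, G6pdx and Mt2, part of the exons overlaps exons annotated on the opposite strand. Reads from the shared stretches cannot be told apart. These covered 296 of 6291 exonic bases in Gclm and 432 of 588 in Mt2. Exons of Gclm also share 244 bases with Gm6061 on the same strand.

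**Figure D1:**
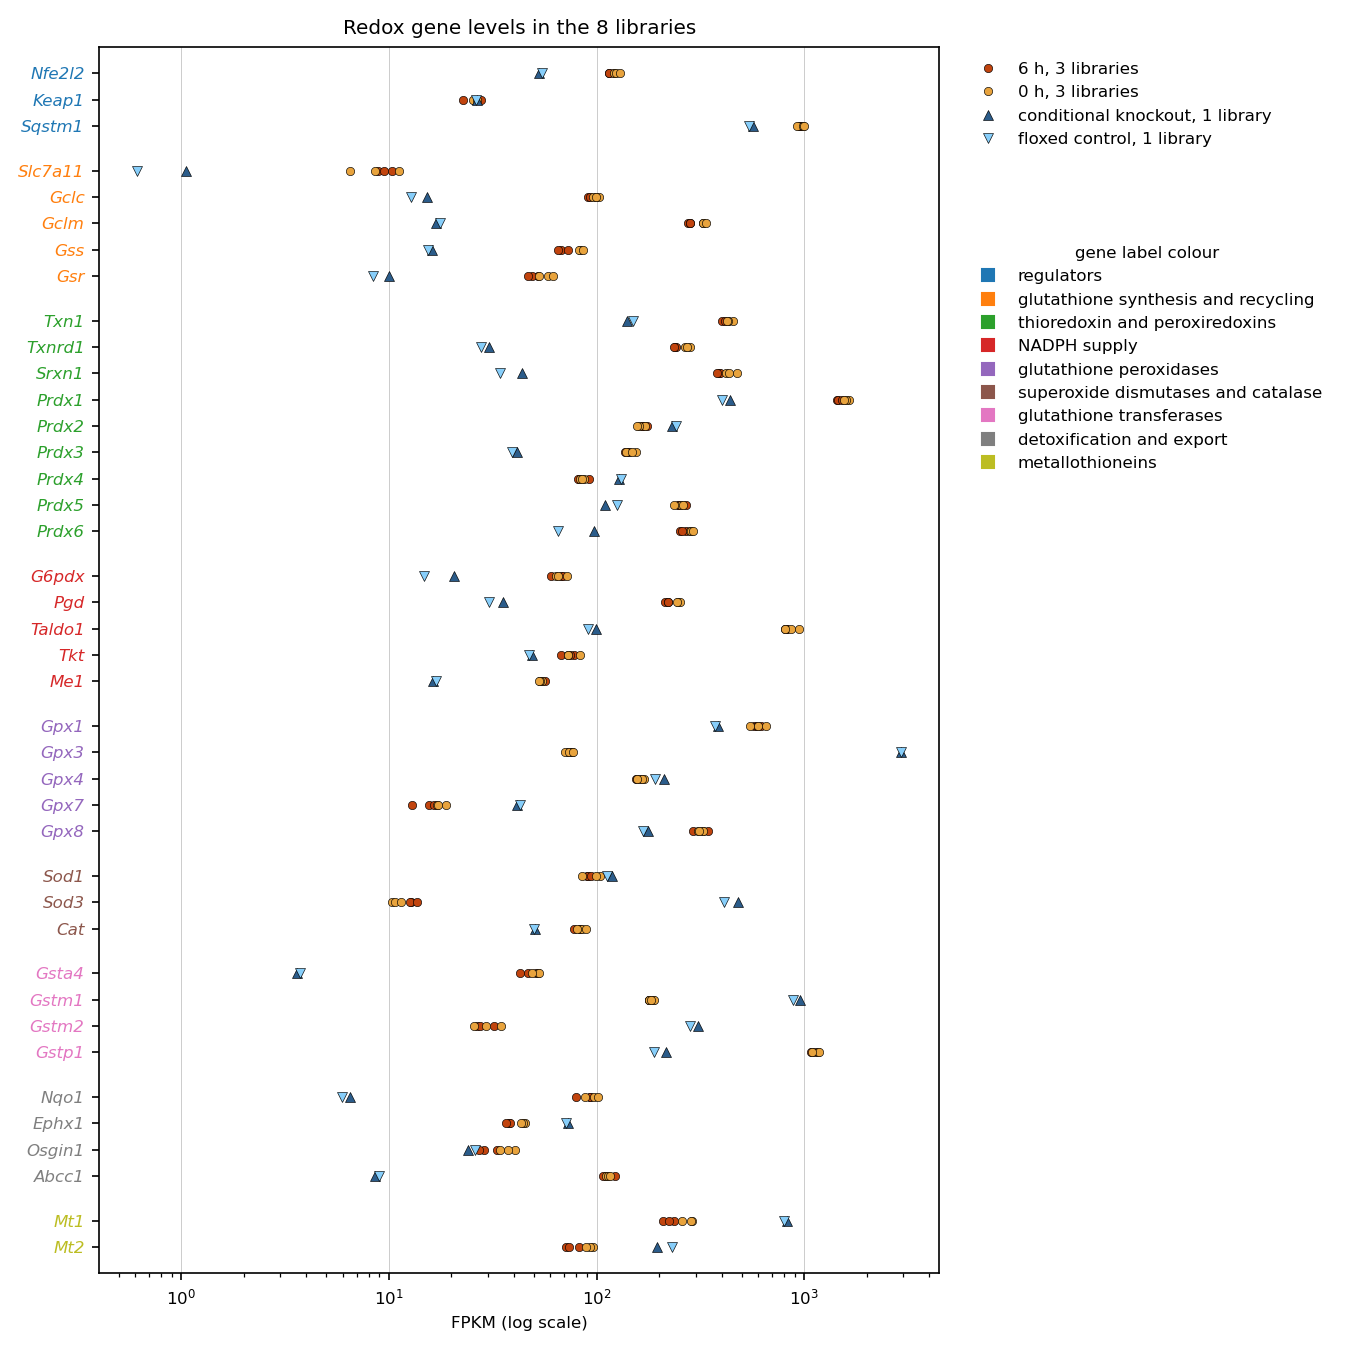
Level of each of the 40 redox genes in FPKM on a log axis, 1 point per library, with genes grouped by role. The 6 h and 0 h points of a gene lie close together, as do those of the conditional knockout and the floxed control, while these pairs stand far apart for many genes, such as Gclm at 274.4 to 335.3 FPKM against 16.9 and 17.6 FPKM in the untreated libraries.

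The first comparison asks how gene expression differed between 6 h and 0 h of GABA and taurine. In the redox set 2 genes fell and none rose (limma with Benjamini-Hochberg adjustment over 10910 genes, threshold 0.05, two-sided). Gclm, the modifier subunit of glutamate-cysteine ligase, which opens glutathione synthesis, was at 0.849 times its 0 h level, and Mt1, a metallothionein that binds zinc and copper, at 0.801 times. Over all genes tested 0.312% fell and 0.238% rose. A lean to lower values was broader than the calls: 33 of the 40 genes had a negative and 7 a positive log2 difference, against 5511 and 5399 of all genes tested. The median log2 difference of the set was -0.07, beside -0.00 for all genes. An unadjusted limma p under 0.05 was found for 13 genes with lower and 1 with higher values, against 4.93% and 4.45% of all genes. In 14 genes all 3 values at 6 h lay below all 3 at 0 h, and in 1 gene all lay above, against 8.01% and 7.25% of all genes. Replicates of the set were closer than those of all genes tested, as given above. Genes of a like level and spread were not compared here either. All these log2 differences are of FPKM + 1.

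Among the regulators none passed the test. Nfe2l2, which encodes NRF2 itself (chr2:75675513-75704641, minus strand), was at 114.4, 121.0 and 114.5 FPKM at 6 h, against 121.6, 124.2 and 129.9 FPKM at 0 h. The 6 h values all lay below the 0 h values, by a log2 difference of -0.10 (SE 0.06) with an adjusted limma p of 0.618. Keap1, the NRF2 inhibitor (chr9:21229730-21239361, minus strand), was at 27.8, 25.6 and 22.8 FPKM at 6 h, against 25.6, 25.5 and 26.6 FPKM at 0 h. Its groups overlapped, with the highest and the lowest value both at 6 h. Sqstm1, an autophagy adaptor that can bind KEAP1, averaged 956.0 ± 17.2 FPKM at 6 h and 972.6 ± 42.8 FPKM at 0 h (SD, n = 3 each), also with overlap.

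Of the 5 genes of glutathione synthesis and recycling, Gclm fell and the others did not pass. Gclm (chr3:122245557-122270732, plus strand), whose promoter window is printed above, was at 274.4, 281.1 and 282.6 FPKM at 6 h, against 325.6, 325.9 and 335.3 FPKM at 0 h. The 2 groups did not overlap, the log2 difference was -0.23 (SE 0.05) with a 95% confidence interval of -0.34 to -0.13, and the adjusted limma p was 0.0478. Gclc, the catalytic subunit of the same enzyme (chr9:77754535-77794485, plus strand), was at 90.6, 99.9 and 93.4 FPKM at 6 h, against 95.8, 102.7 and 99.1 FPKM at 0 h. Its groups overlapped, with a log2 difference of -0.07 (SE 0.06) and an adjusted limma p of 0.789. The ratio of Gclm to Gclc FPKM was 3.03, 2.81 and 3.02 at 6 h, against 3.4, 3.17 and 3.38 at 0 h, so that all 3 ratios at 6 h were lower, a difference that was not tested. Gss, the glutathione synthetase gene that acts after this enzyme, was at 67.4, 65.1 and 72.5 FPKM at 6 h, against 82.9, 81.9 and 85.8 FPKM at 0 h. All 6 h values lay below the 0 h values, with a log2 difference of -0.29 (SE 0.06) and an adjusted limma p of 0.0718. Gsr, which reduces oxidised glutathione with NADPH, averaged 49.2 ± 2.9 FPKM at 6 h and 57.7 ± 4.38 FPKM at 0 h (SD, n = 3 each), without overlap and with an adjusted limma p of 0.331. Slc7a11, the cystine importer of the cell membrane (chr3:49892526-50443614, minus strand), was at 10.4, 8.85 and 9.5 FPKM at 6 h, against 6.52, 8.59 and 11.2 FPKM at 0 h. Its 0 h values enclosed those at 6 h.

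None of the 9 thioredoxin and peroxiredoxin genes passed, although 4 of them had an unadjusted limma p under 0.05 and groups that did not overlap. Txnrd1, the reductase that passes electrons from NADPH to thioredoxin (chr10:82833951-82897712, plus strand), was at 237.8, 240.6 and 234.9 FPKM at 6 h, against 266.4, 282.8 and 273.7 FPKM at 0 h. The 6 h values were all lower, by a log2 difference of -0.21 (SE 0.05) with an adjusted limma p of 0.1. Srxn1, sulfiredoxin, which repairs overoxidised peroxiredoxins, was at 391.0, 391.6 and 381.2 FPKM at 6 h, against 418.7, 432.6 and 475.3 FPKM at 0 h. These groups did not overlap either, with a log2 difference of -0.19 (SE 0.05) and an adjusted limma p of 0.234. Prdx1 averaged 1471 ± 40 FPKM at 6 h and 1601 ± 44.3 FPKM at 0 h, and Prdx6, the peroxiredoxin that relies on glutathione, 261.1 ± 8.94 FPKM at 6 h and 286.2 ± 5.35 FPKM at 0 h (SD, n = 3 each). Both had all 6 h values below the 0 h values, with adjusted limma p of 0.419 and 0.404. Txn1, which encodes thioredoxin, and Prdx2 to Prdx5 overlapped between the groups, with log2 differences between -0.07 and 0.06.

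Of the 5 NADPH supply genes none passed, and the groups of 1 did not overlap. Pgd, an oxidative enzyme of the pentose phosphate pathway, was at 213.1, 220.4 and 220.0 FPKM at 6 h, against 247.2, 252.0 and 243.8 FPKM at 0 h, without overlap and with an adjusted limma p of 0.15. G6pdx, the entry enzyme of the same pathway, averaged 65.6 ± 4.27 FPKM at 6 h and 67 ± 4.56 FPKM at 0 h (SD, n = 3 each), with overlap. Taldo1 and Tkt, of the nonoxidative branch, and Me1, the cytosolic malic enzyme, had log2 differences of -0.10, -0.06 and 0.03, each with overlapping groups.

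Peroxidases, dismutases and transferases gave no call. Gpx7, a glutathione peroxidase of the endoplasmic reticulum, averaged 15 ± 1.91 FPKM at 6 h and 17.7 ± 1 FPKM at 0 h (SD, n = 3 each), with no overlap and an adjusted limma p of 0.527. Gpx1, Gpx3, Gpx4 and Gpx8 overlapped between the groups, with log2 differences between -0.05 and 0.03. Sod3, the extracellular superoxide dismutase (chr5:52363791-52371418, plus strand), was the 1 gene of the set with all 6 h values above the 0 h values. It was at 12.8, 12.7 and 13.7 FPKM at 6 h, against 10.3, 10.7 and 11.4 FPKM at 0 h, a log2 difference of 0.25 (SE 0.10) that did not pass, with an adjusted limma p of 0.426. Sod1, the cytosolic dismutase, and Cat, catalase, overlapped, with a log2 difference of -0.06 each. The 4 transferases Gsta4, Gstm1, Gstm2 and Gstp1 all had negative log2 differences, between -0.14 and -0.01, and all overlapped.

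In the detoxification genes the groups of 2 did not overlap. Nqo1, the quinone reductase that is a standard readout of NRF2 (chr8:107388225-107403206, minus strand), was at 79.6, 93.3 and 93.1 FPKM at 6 h, against 97, 88.3 and 101.7 FPKM at 0 h. Its groups overlapped, with a log2 difference of -0.11 (SE 0.08) and an adjusted limma p of 0.699. Osgin1, a growth inhibitor gene that responds to oxidative stress, averaged 29.6 ± 3.03 FPKM at 6 h and 37.4 ± 3.02 FPKM at 0 h, and Ephx1, the microsomal epoxide hydrolase, 37.6 ± 0.819 FPKM at 6 h and 44.2 ± 0.875 FPKM at 0 h (SD, n = 3 each). Their 6 h values were all lower, with adjusted limma p of 0.181 and 0.216. Abcc1, an exporter of glutathione conjugates, had a log2 difference of -0.00 with a 95% confidence interval of -0.14 to 0.13.

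Mt1 fell, and Mt2 lay lower without passing. Mt1 (chr8:94179082-94180327, plus strand) was at 208.6, 234.8 and 222.6 FPKM at 6 h, against 288.9, 285.5 and 257.3 FPKM at 0 h. The groups did not overlap, the log2 difference was -0.32 (SE 0.06) with a 95% confidence interval of -0.45 to -0.18, and the adjusted limma p was 0.041. Mt2 (chr8:94172664-94173568, plus strand), a second metallothionein, was at 71.4, 82.1 and 74 FPKM at 6 h, against 96.3, 93.1 and 88.8 FPKM at 0 h. Its groups did not overlap either, with a log2 difference of -0.29 (SE 0.07) and an adjusted limma p of 0.0963. The ratio of Mt1 to Mt2 FPKM was 2.92, 2.86 and 3.01 at 6 h, against 3, 3.07 and 2.9 at 0 h, with overlap.

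**Figure D2:**
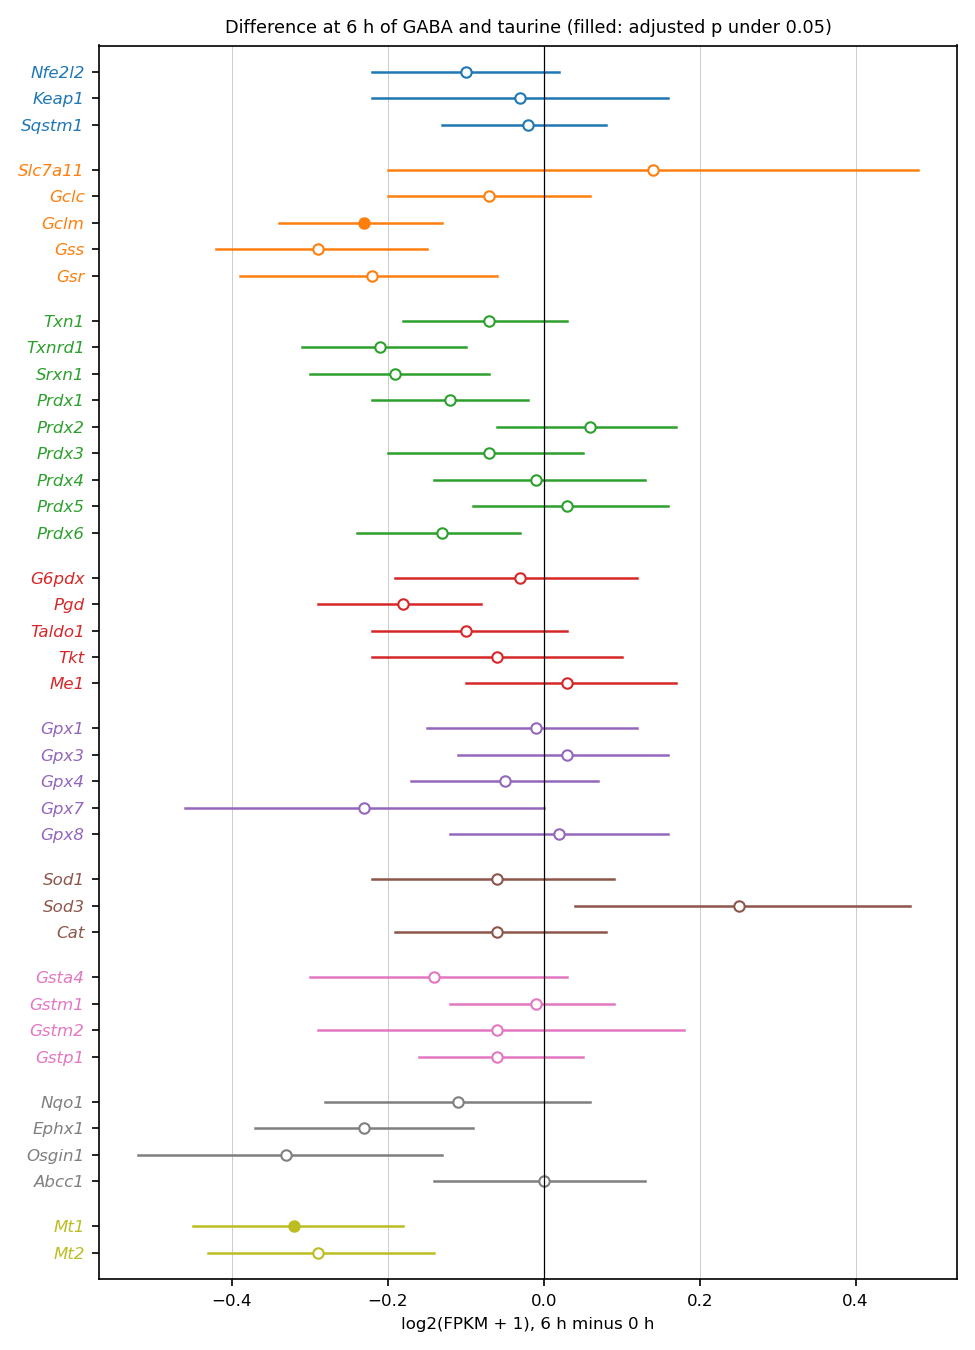
Difference in log2(FPKM + 1) at 6 h minus 0 h for each of the 40 redox genes, with bars for the 95% confidence interval of the limma fit on 3 libraries per time. Filled points mark adjusted p under 0.05, which Gclm (-0.23) and Mt1 (-0.32) met, and most points lie left of 0.

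The calls for Gclm and Mt1 were close to the threshold and depended on single libraries. The Gclm call was lost without any 1 of the 6 libraries (adjusted limma p 0.0781 to 0.25), with log2 differences between -0.24 and -0.22. The Mt1 call was kept without the 0 h replicate 3 library (adjusted limma p 0.0114) and lost without each of the other 5 (0.109 to 0.254). The summed level of 17 epithelial markers was 6.4, 4.75 and 6.53 FPKM at 6 h, against 3.99, 2.45 and 2.3 FPKM at 0 h, and 3 of them were at 0 in all 6 libraries. Of these markers Krt8 alone passed the filter on low values, and it rose, to 2.06 ± 0.285 FPKM at 6 h against 0.396 ± 0.291 FPKM at 0 h (adjusted limma p 0.0319), a call kept in 1 of the 6 fits that left out a library. The 16 leukocyte markers summed to 14.9, 18.7 and 12.2 FPKM at 6 h, against 6.86, 22.4 and 8.55 FPKM at 0 h, with overlap. Other markers were counted where they passed the filter on low values. Log2 differences were positive in 6 of 6 for Foxl1-positive mesenchyme, 5 of 6 for fibroblasts and 3 of 3 for the sorting gate. These gate genes were Pdpn, Pdgfra and Ly6c1, the last of which the gate excluded. Positive differences were found in 2 of 3 for endothelium, 3 of 8 for smooth muscle and pericytes and 0 of 5 for proliferation. Of all 10910 genes tested, 5399 were positive. None of these other markers passed the test. The log2 differences were 0.31 for Pdgfra, 0.25 for F3, 0.25 for Lum, 0.23 for Dcn and 0.22 for Col3a1 (adjusted limma p 0.0877 to 0.15), beside -0.23 for Gclm. Other genes of these lists were near 0, with Pdpn, Foxf2 and Col1a2 at 0.02 each, Col1a1 at 0.07 and Vim at -0.07. The median was 0.19 for Foxl1-positive mesenchyme, 0.14 for fibroblasts and 0.31 for the gate. The part of such cells in the redox values was not tested. In bulk samples fewer cells of a type and less RNA per cell cannot be told apart.

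**Figure D3:**
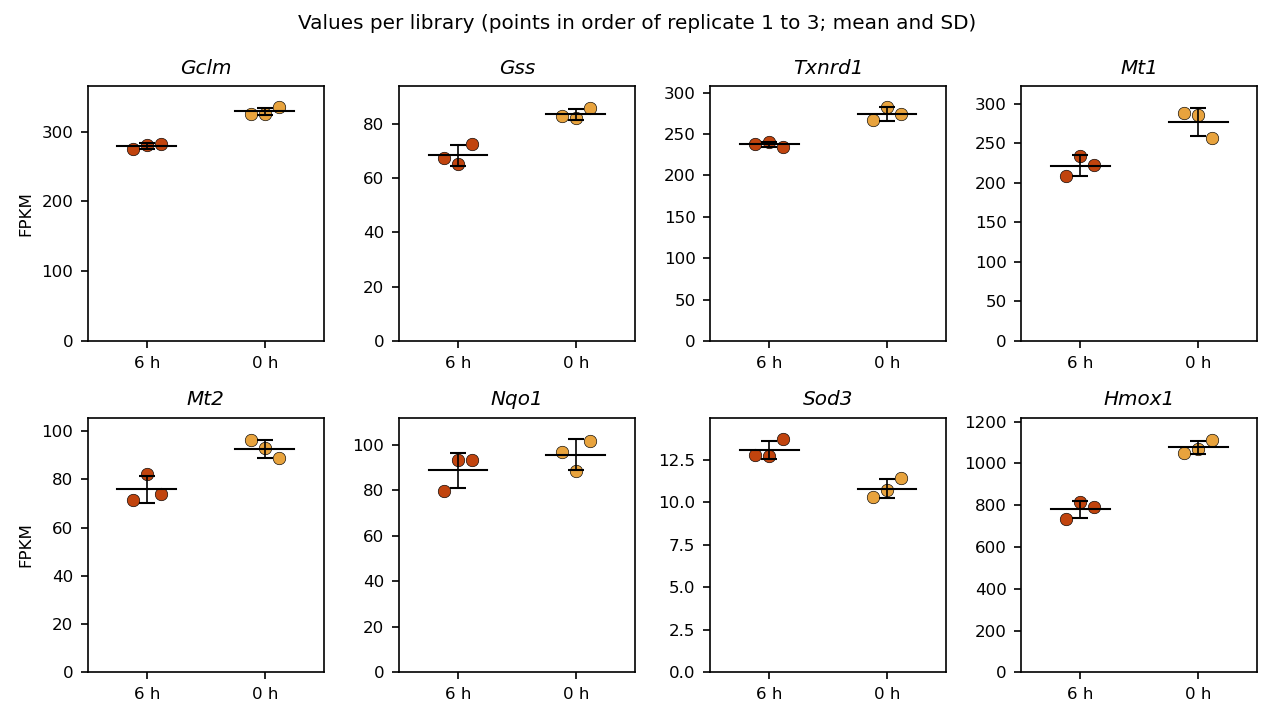
FPKM per library at 6 h and 0 h for 7 redox genes and the NRF2 target Hmox1, with the mean and SD of 3 libraries and each axis starting at 0. The 2 groups are separate for all but Nqo1, and Sod3 is the 1 gene shown with higher values at 6 h.

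A list of 71 further genes of these pathways, of which 56 passed the filter, gave 1 rise and 1 fall. Over all genes tested 0.238% rose and 0.312% fell. Hmox1, heme oxygenase and a known NRF2 target, fell, at 733.1, 815.5 and 790.2 FPKM at 6 h, against 1049, 1070 and 1110 FPKM at 0 h. The log2 difference was -0.47 (SE 0.05) with an adjusted limma p of 0.00463, and it also passed when any 1 of the 6 libraries was left out (adjusted limma p up to 0.0493). The call was lost with no filter on low values (adjusted limma p 0.244) and with no trend in the prior variance (0.291). Chac1, which breaks down glutathione inside the cell, rose, at 10.5, 11.9 and 13.3 FPKM at 6 h, against 4.06, 6.1 and 6.62 FPKM at 0 h. The log2 difference was 0.99 (SE 0.16) with an adjusted limma p of 0.0275, and it passed in 1 of the 6 fits that left out a library (adjusted limma p 0.00641 to 0.144). The Chac1 call was also lost with no filter on low values (adjusted limma p 0.314) and with no trend in the prior variance (0.291). The 14 genes tested from the list of further NRF2 targets, Hmox1 among them, had negative log2 differences in 11 cases and positive ones in 3, with a median of -0.12. Of all genes tested, 5511 were negative and 5399 positive, with a median of -0.00.

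The second comparison sets the conditional knockout beside its floxed control and asks what differs when Cxcl12 is deleted by Foxl1-Cre. With 1 library per genotype there is no replicate check and no test. None of the 39 redox genes that averaged 1 FPKM or more in these 2 libraries differed by 1.5-fold in either direction. Of all 14949 such genes 4.16% were higher by 1.5-fold or more in the conditional knockout library and 7.00% lower. The shares past 2-fold were 1.36% higher and 2.22% lower. These shares take in all genes from a mean of 1 FPKM on, and genes of a like level to the set were not compared. The median log2 difference of the set was 0.05, beside 0.04 for all genes, and became -0.00 when both libraries were scaled to a common median.

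Single redox genes lay between -0.23 and 0.56 on the log2 scale. Prdx6 differed most, at 97 FPKM in the conditional knockout and 65.6 FPKM in the floxed control, a log2 difference of 0.56. G6pdx followed, at 20.5 FPKM in the conditional knockout and 14.7 FPKM in the floxed control (log2 difference 0.46), and Srxn1 was at 43.6 FPKM in the conditional knockout and 34.3 FPKM in the floxed control (log2 difference 0.34). The lowest was Mt2, at 196.2 FPKM in the conditional knockout and 230.1 FPKM in the floxed control, with a log2 difference of -0.23. The NRF2 genes were close in the 2 libraries. Nfe2l2 was at 52.6 FPKM in the conditional knockout and 54.7 FPKM in the floxed control, and Keap1 at 26.5 FPKM in the conditional knockout and 26.3 FPKM in the floxed control. Gclm was at 16.9 FPKM in the conditional knockout and 17.6 FPKM in the floxed control, and Nqo1 at 6.5 FPKM in the conditional knockout and 5.92 FPKM in the floxed control. Gclc was at 15.3 FPKM in the conditional knockout and 12.8 FPKM in the floxed control, and Txnrd1 at 30.2 FPKM in the conditional knockout and 27.9 FPKM in the floxed control. Slc7a11, under the filter, was at 1.05 FPKM in the conditional knockout and 0.615 FPKM in the floxed control, levels too low for a comparison.

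The 2 genotype libraries differed in markers of other cells. The summed level of the 17 epithelial markers was 1039 FPKM in the conditional knockout library, against 106.5 FPKM in the floxed control library, with all 17 higher in the knockout. The 16 leukocyte markers summed to 679.3 FPKM against 570.5 FPKM, and the 11 endothelial markers to 45.2 FPKM against 72.4 FPKM. Their part in the values of Prdx6, G6pdx and the others was not tested.

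The third comparison sets the level of the redox genes in the 6 GABA and taurine libraries beside that in the 2 untreated genotype libraries. It uses the same libraries as the comparisons above. The sets differ in genotype, treatment, levels of cell type markers, number of genes above 0 and perhaps in the scaling by the authors. None of these can be told apart from the others. Levels are therefore described without a test. Of the 6 GABA and taurine libraries, 3 were labelled 0 h, and the distance to the untreated libraries was already there at 0 h. Gclm was at 325.6 to 335.3 FPKM at 0 h, against 16.9 and 17.6 FPKM in the untreated libraries. Gpx3 was at 70.2 to 77.2 FPKM at 0 h, against 2931 and 2929 FPKM. The name GABA and taurine libraries follows the labels and does not mean 6 h of exposure. With no overlap between the sets, 21 of the 40 genes were higher by 2-fold or more in the GABA and taurine libraries and 7 were lower, against 18.0% and 28.0% of the 13182 genes compared. At least 4-fold, 13 genes were higher and 4 lower, against 4.70% and 10.4% of all genes. The median log2 difference was 1.13, beside -0.10 for all genes. Since the set was chosen with earlier results of these data known, these counts and medians describe the chosen genes and test nothing. Scaling all libraries to a common median moved all genes by a median of -0.22, after which the set had a median of 0.89, with 19 genes higher and 8 lower at 2-fold. These folds are of FPKM + 1, and the ratios that follow are of mean FPKM.

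All 5 genes of glutathione synthesis and recycling were at least 4-fold higher in the GABA and taurine libraries. Gclm lay between 274.4 and 335.3 FPKM, with a median of 304.1, in the GABA and taurine libraries, against 16.9 FPKM in the conditional knockout and 17.6 FPKM in the floxed control, a ratio of 17.6. Gclc lay between 90.6 and 102.7 FPKM, with a median of 97.4, in the GABA and taurine libraries, against 15.3 FPKM in the conditional knockout and 12.8 FPKM in the floxed control, a ratio of 6.91. The ratio of Gclm to Gclc FPKM was 2.81 to 3.4 in the GABA and taurine libraries, against 1.11 in the conditional knockout and 1.38 in the floxed control. Slc7a11 lay between 6.52 and 11.2 FPKM, with a median of 9.17, in the GABA and taurine libraries, against 1.05 FPKM in the conditional knockout and 0.615 FPKM in the floxed control, a ratio of 11 that rests on untreated values near 1 FPKM. Gsr lay between 46.6 and 61.8 FPKM, with a median of 52.7, in the GABA and taurine libraries, against 10 FPKM in the conditional knockout and 8.38 FPKM in the floxed control. Gss lay between 65.1 and 85.8 FPKM, with a median of 77.2, in the GABA and taurine libraries, against 16.1 FPKM in the conditional knockout and 15.5 FPKM in the floxed control. Their ratios were 5.81 and 4.82, and the sum of all 5 genes was 495.1 to 593.0 FPKM, against 59.4 and 54.8 FPKM.

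The regulators had ratios nearer to 1. Nfe2l2 lay between 114.4 and 129.9 FPKM, with a median of 121.3, in the GABA and taurine libraries, against 52.6 FPKM in the conditional knockout and 54.7 FPKM in the floxed control, a ratio of 2.26. Keap1 lay between 22.8 and 27.8 FPKM, with a median of 25.6, in the GABA and taurine libraries, against 26.5 FPKM in the conditional knockout and 26.3 FPKM in the floxed control, so that the untreated values fell inside the range of the others. Sqstm1 was 1.75 times as high in the GABA and taurine libraries.

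In the thioredoxin system 7 of 9 genes were higher by 2-fold or more, 2 of them by 4-fold or more. Srxn1 lay between 381.2 and 475.3 FPKM, with a median of 405.1, in the GABA and taurine libraries, against 43.6 FPKM in the conditional knockout and 34.3 FPKM in the floxed control, a ratio of 10.7. Txnrd1 lay between 234.9 and 282.8 FPKM, with a median of 253.5, in the GABA and taurine libraries, against 30.2 FPKM in the conditional knockout and 27.9 FPKM in the floxed control, a ratio of 8.81. Txn1, the substrate of this reductase, had a ratio of 2.95. Among the peroxiredoxins, Prdx1 (3.65), Prdx3 of mitochondria (3.55), Prdx5 (2.15) and Prdx6 (3.37) had ratios above 2. Prdx2 and Prdx4 went the other way, with ratios of 0.702 and 0.655. Prdx1 made up 61.1% to 63.4% of the summed FPKM of the 6 peroxiredoxins, against 41.9% and 40.2% in the untreated libraries.

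For NADPH supply, Taldo1 and Pgd were at least 4-fold higher. Taldo1 lay between 804.9 and 941.8 FPKM, with a median of 820.1, in the GABA and taurine libraries, against 99 FPKM in the conditional knockout and 90.8 FPKM in the floxed control, a ratio of 8.89. Pgd lay between 213.1 and 252.0 FPKM, with a median of 232.1, in the GABA and taurine libraries, against 35.3 FPKM in the conditional knockout and 30.3 FPKM in the floxed control, a ratio of 7.09. G6pdx and Me1 had ratios of 3.77 and 3.26, and Tkt, which works with Taldo1 in the nonoxidative branch, a ratio of 1.56.

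In the detoxification group the 4 genes were split. Nqo1 lay between 79.6 and 101.7 FPKM, with a median of 93.2, in the GABA and taurine libraries, against 6.5 FPKM in the conditional knockout and 5.92 FPKM in the floxed control, a ratio of 14.8. Abcc1 lay between 107.8 and 122.5 FPKM, with a median of 112.4, in the GABA and taurine libraries, against 8.62 FPKM in the conditional knockout and 9 FPKM in the floxed control, a ratio of 12.9. Both were far above the untreated libraries, whereas Osgin1 had a ratio of 1.34 and Ephx1 of 0.569.

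The secreted enzymes ran in the other direction. Gpx3 (chr11:54902453-54910377, plus strand) lay between 70.2 and 77.2 FPKM, with a median of 74.3, in the GABA and taurine libraries, against 2931 FPKM in the conditional knockout and 2929 FPKM in the floxed control. The untreated mean was 39.5 times that of the GABA and taurine libraries. Sod3 lay between 10.3 and 13.7 FPKM, with a median of 12.1, in the GABA and taurine libraries, against 481.5 FPKM in the conditional knockout and 409.6 FPKM in the floxed control, with an untreated mean 37.3 times as high. The intracellular peroxidases, Sod1 and catalase differed far less: the ratio of GABA and taurine to untreated libraries was 1.58 for Gpx1, 0.802 for Gpx4, which reduces lipid peroxides, 1.85 for Gpx8, 0.815 for Sod1 and 1.65 for Cat. Gpx7 was at least 2-fold lower, with a ratio of 0.388. Gpx3 made up 5.67% to 6.93% of the summed FPKM of the 5 peroxidases in the GABA and taurine libraries, against 78.3% in the conditional knockout and 79.2% in the floxed control library. Gpx1 made up 49.4% to 52.6%, against 10.2% and 10%. Sod3 made up 9.05% to 12.6% of the sum of Sod1 and Sod3, against 80.2% and 78.5%.

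The 4 transferases were split, with 2 higher and 2 lower by 4-fold or more. Gstp1 lay between 1082 and 1183 FPKM, with a median of 1113, in the GABA and taurine libraries, against 215.7 FPKM in the conditional knockout and 188.4 FPKM in the floxed control, a ratio of 5.56. Gsta4, a transferase for lipid aldehydes, lay between 42.7 and 52.8 FPKM, with a median of 49.9, in the GABA and taurine libraries, against 3.61 FPKM in the conditional knockout and 3.73 FPKM in the floxed control, a ratio of 13.4. Gstm1 lay between 179.4 and 188.6 FPKM, with a median of 181.3, in the GABA and taurine libraries, against 953.3 FPKM in the conditional knockout and 880.8 FPKM in the floxed control, with an untreated mean 5.02 times as high. Gstm2 lay between 25.8 and 34.7 FPKM, with a median of 28.4, in the GABA and taurine libraries, against 307.8 FPKM in the conditional knockout and 281.5 FPKM in the floxed control, with an untreated mean 10 times as high. Of the sum of these 4 genes, Gstp1 made up 80.7% to 81.6% in the GABA and taurine libraries, against 14.6% and 13.9% in the conditional knockout and the floxed control library. Genes of the Gstm and Gstp families have close copies among which reads may have been split. Gstm1 to Gstm7 summed to 260.3 to 279.1 FPKM, against 1353 and 1245 FPKM, and Gstp1 with Gstp2 to 1111 to 1212 FPKM, against 230.1 and 209.8 FPKM, so the directions were the same for the sums.

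**Figure D4:**
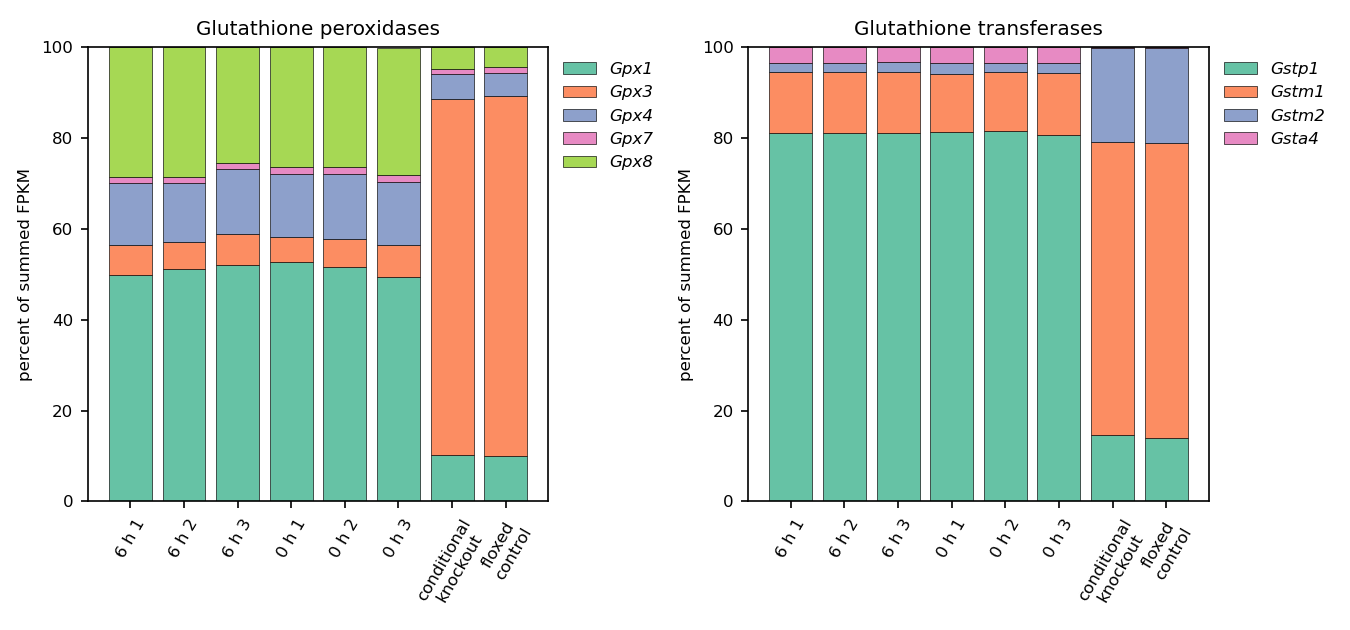
Share of each gene in the summed FPKM of the 5 glutathione peroxidases (left) and of the 4 glutathione transferases (right), as 1 stacked bar per library. Gpx3 and Gstm1 fill most of the 2 untreated bars on the right of each panel, and Gstp1 most of the 6 GABA and taurine bars on the right panel. In the 6 GABA and taurine bars of the left panel Gpx1 is the tallest part, at 49.4% to 52.6%.

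Both metallothioneins were lower in the GABA and taurine libraries. Mt1 lay between 208.6 and 288.9 FPKM, with a median of 246.0, in the GABA and taurine libraries, against 822.0 FPKM in the conditional knockout and 803.2 FPKM in the floxed control, and the untreated mean was 3.26 times as high. Mt2 lay between 71.4 and 96.3 FPKM, with a median of 85.5, in the GABA and taurine libraries, against 196.2 FPKM in the conditional knockout and 230.1 FPKM in the floxed control, and the untreated mean was 2.53 times as high. The 2 sets also differed in markers of cell types. Foxl1 and 6 of 7 fibroblast markers were lower in the GABA and taurine libraries, and Vim was higher, as given above. Among markers of other cells that passed the filter on low values, 14 of 15 for epithelium, 13 of 14 for leukocytes, 5 of 7 for endothelium, 1 of 1 for glia and 3 of 10 for smooth muscle and pericytes were lower by 2-fold or more with no overlap, against 28.0% of all genes compared. Of the 10 smooth muscle and pericyte markers, 6 were lower in all 6 GABA and taurine libraries than in both untreated ones. Among them, Myh11 averaged 0.793 FPKM against 15.4 FPKM and Rgs5 0.171 FPKM against 8.04 FPKM. The smooth muscle actins Acta2 and Actg2 and the actin-binding Tagln went the other way in mean. They were at 521.9, 39.7 and 427.1 FPKM in the GABA and taurine libraries, against 343.2, 13 and 292.3 FPKM in the untreated ones. The epithelial markers summed to 2.3 to 6.53 FPKM, against 1039 and 106.5 FPKM, and the leukocyte markers to 6.86 to 22.4 FPKM, against 679.3 and 570.5 FPKM. The part of such cells in the redox levels was not tested.

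**Figure D5:**
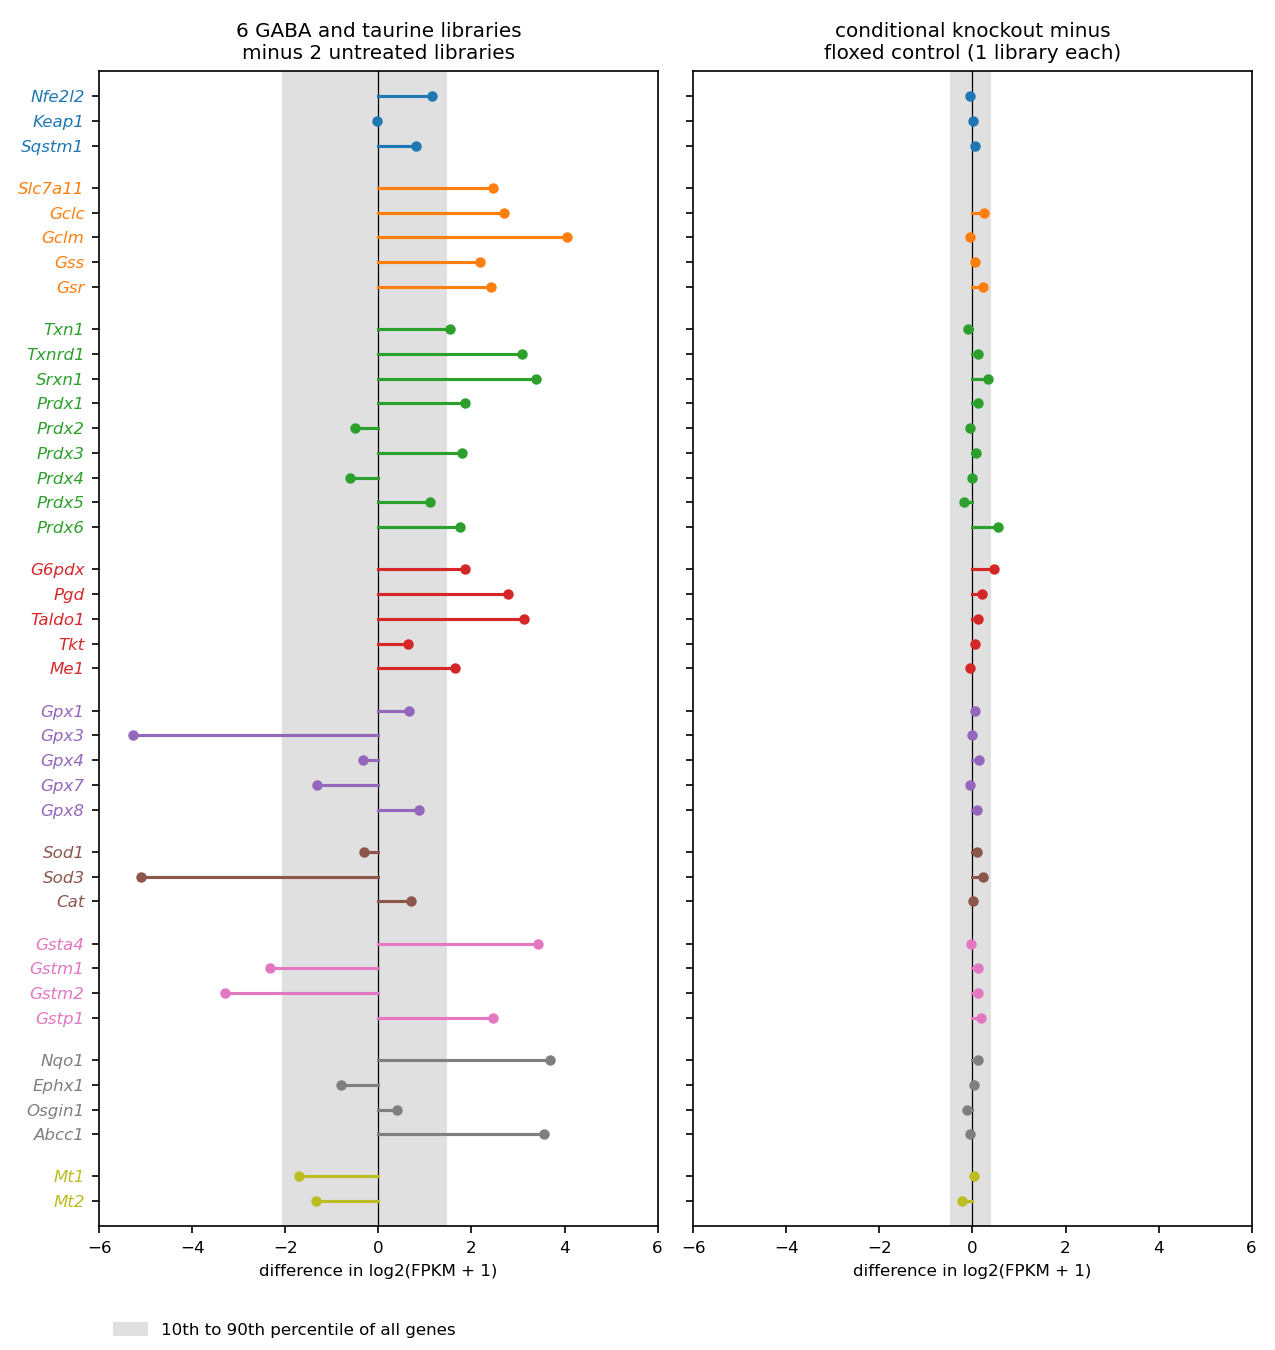
Difference in log2(FPKM + 1) for each of the 40 redox genes between the 6 GABA and taurine and the 2 untreated libraries (left) and between the conditional knockout and the floxed control library (right, 39 genes), with a grey band for the 10th to 90th percentile of all genes. On the left the band spans -2.06 to 1.45, with Gclm at 4.06 and Gpx3 at -5.28 beyond it, and on the right, where it spans -0.46 to 0.38, only Prdx6 and G6pdx lie beyond it.

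Of 62 further genes of the same pathways compared, 22 were higher by 2-fold or more in the GABA and taurine libraries with no overlap and 19 were lower, against 18.0% and 28.0% of all genes compared. The list of further NRF2 targets was split: of 16 compared, 9 were higher and 5 lower in this way. The lower ones were Cbr1, Akr1b10, Aldh3a1, Idh1 and Abcc3. Hmox1, of the same list, lay between 733.1 and 1110 FPKM in the GABA and taurine libraries, against 69.7 FPKM in the conditional knockout and 63.4 FPKM in the floxed control. Mthfd2, a mitochondrial folate enzyme that makes NADH or NADPH, lay between 78.2 and 84.3 FPKM in the GABA and taurine libraries, against 7.66 FPKM in the conditional knockout and 7.68 FPKM in the floxed control, and Gsto1, a transferase of the omega class, between 132.7 and 149.9 FPKM in the GABA and taurine libraries, against 16.5 FPKM in the conditional knockout and 18.2 FPKM in the floxed control. These were higher in the GABA and taurine libraries, as was Chac1, which lay between 4.06 and 13.3 FPKM in the GABA and taurine libraries, against 0.233 FPKM in the conditional knockout and 0.146 FPKM in the floxed control. Gstt1, a transferase of the theta class, lay between 3.13 and 6.41 FPKM in the GABA and taurine libraries, against 126.8 FPKM in the conditional knockout and 131.6 FPKM in the floxed control, and Ggt5, which cleaves glutathione and its conjugates outside the cell, between 0.338 and 1.01 FPKM in the GABA and taurine libraries, against 30.4 FPKM in the conditional knockout and 34.3 FPKM in the floxed control. Aldh3a1, an aldehyde dehydrogenase, lay between 0 and 0.08 FPKM in the GABA and taurine libraries, against 3.78 FPKM in the conditional knockout and 6.48 FPKM in the floxed control. These last were lower in the GABA and taurine libraries.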

How the data were processed

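The authors deposited 1 table per library with an FPKM value for each gene symbol, per the file headers. Cuffdiff 2.2.1, SAMtools 0.1.18, Bowtie2 2.2.8, TopHat2 2.1.1 and the mouse build mm10 are named in the submitters' processing notes, without saying which did what. Per the labels' protocols, cDNA was made with SMART-Seq HT and libraries with Nextera XT. The sources used here do not give how reads shared by several genes were counted or whether libraries were scaled to each other. A count test was not run, since FPKM are not counts. By the step size of genes under 0.5 FPKM, the estimated depth of the conditional knockout library was 1.25 times that of the floxed control (24% of 1842 low genes at that step, within 0.01 on the log2 scale), and the time libraries were at 0.823 to 0.959 of the 0 h replicate 1 library, with 7.6% to 9.58% of low genes at the step. Over all pairs of libraries, 2 values at or above 1 FPKM were equal in every digit deposited.

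For 6 h against 0 h, log2(FPKM + 1) of the 10910 genes averaging 1 FPKM or more entered limma 3.58.1 (R 4.3.3), with a trend in the prior variance, tested two-sided and adjusted by Benjamini-Hochberg over all of them at 0.05. The script was tested on simulated data. All 40 genes of the set passed this filter. The genotype and set comparisons had no test, and a gene counted as past at 2-fold of FPKM + 1, in the set comparison also with no overlap. Sequences and starts are from RefSeq, gene positions and exon overlaps from GENCODE, both GRCm38.

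The genes of the set, the further lists and the markers were chosen with earlier results of these data known. Values per library are given for genes past the test at 6 h, at least 1.5-fold between genotypes or at least 4-fold between sets, and for Nfe2l2, Keap1, Nqo1, Gclm, Gclc, Slc7a11, Txnrd1 and Srxn1. Further pathway genes are named where past the test or among the 3 largest set differences of their list, and other values were chosen after they were seen. Alternatives were another pseudocount, other filters, median scaling, a replicate block, no variance trend and leaving out each library.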

Additional observations from a re-analysis of the deposited data

How the results depend on the processing

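The 2 falls of redox genes at 6 h became 0 with no filter on low values, 0 with no trend in the prior variance, and 0 to 1 when each library was left out in turn. They stayed at the reported count with a pseudocount of 0.1, and with median scaling, while a 10 FPKM filter added Gss (adjusted limma p 0.0367). Over all genes tested, the falls became 0 with no filter and 0 with no trend, and 2 to 68 without single libraries, and the rises became 0 with no filter, 0 with no trend and 0 to 47 without single libraries. The cause was not tested, except that no filter means more genes tested and a left-out library fewer samples. With the replicate number as a block there were 0 falls in the set, and over all genes 9 falls and 14 rises. Deviations of libraries that share a number had correlations of -0.044, 0.013 and -0.028, beside -0.034 to 0.067 for libraries with different numbers. Such values cannot tell whether libraries that share a number came from the same animal or culture, since a spread that is only technical could give them too. The median log2 difference of the set between the GABA and taurine and the untreated libraries moved to 0.89 with median scaling. Differences near 0 at 6 h turned sign when single libraries were left out: the ranges were -0.03 to 0.31 for Slc7a11, -0.06 to 0.03 for Prdx4, -0.10 to 0.00 for Tkt, -0.07 to 0.05 for Gpx1, -0.01 to 0.06 for Gpx3, -0.16 to 0.05 for Gstm2, -0.03 to 0.00 for Gstm1, -0.01 to 0.06 for Prdx5, -0.07 to 0.02 for G6pdx, -0.06 to 0.03 for Abcc1, -0.03 to 0.09 for Gpx8 and -0.09 to 0.04 for Keap1. Between genotypes no gene of the set reached 2-fold under any of the 5 alternatives. The number of reads is unknown, which limits what can be said of genes near 1 FPKM such as Slc7a11 in the untreated libraries.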

Other observations

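Other genes of these pathways were named among the largest set differences of their lists, given here as values with no test. Among the partners and repressors of NRF2, Bach2 lay between 0.304 and 0.54 FPKM in the GABA and taurine libraries, against 2.23 FPKM in the conditional knockout and 2.56 FPKM in the floxed control library. Rbx1, a component of the ligase that marks NRF2 for degradation, lay between 137.5 and 157.8 FPKM, against 65.9 and 70.1 FPKM, and Mafg, a small MAF protein that pairs with NRF2, between 27.8 and 36.1 FPKM, against 14.9 and 15.9 FPKM.

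In the thioredoxin and glutaredoxin list, Glrx3 lay between 102.3 and 127.5 FPKM in the GABA and taurine libraries, against 26 FPKM in the conditional knockout and 27.3 FPKM in the floxed control library. Txnip, which binds and inhibits thioredoxin, lay between 67.7 and 74.8 FPKM, against 232.1 and 307.2 FPKM, and Txnrd3 between 19.4 and 24.9 FPKM, against 4.7 and 4.76 FPKM. In the pentose phosphate and superoxide list, Mthfd1, a cytosolic folate enzyme, lay between 67.2 and 78.9 FPKM, against 10.2 and 9.8 FPKM. Idh2 of the same list, the NADPH-making isocitrate dehydrogenase of mitochondria, lay between 12.9 and 18.6 FPKM, against 83.9 and 81 FPKM. Mgst3, of the list of transferases and peroxidases, lay between 2.03 and 4.46 FPKM, against 59.7 and 37.2 FPKM. Oplah, of the glutathione breakdown and glyoxalase list, lay between 0.748 and 2.31 FPKM, against 11.7 and 9.96 FPKM. Abcc3, of the list of further NRF2 targets, lay between 0.592 and 1.8 FPKM, against 12.8 and 7.61 FPKM. At 6 h against 0 h none of these genes passed the limma test, and Bach2 and Abcc3 were under its filter on low values.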
